A study of Mus musculus with 12 samples.

Results

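The combination of palbociclib and ruxolitinib was compared with ruxolitinib alone in LSK cells, marrow cells sorted as Lin-, Sca-1+ and Kit+, among which are blood stem cells and multipotent progenitors. The difference between both arms shows how expression stood when palbociclib was given on top of ruxolitinib. Members of the comparison were the genes with a base mean of at least 50 normalised reads whose symbol does not begin with Igh, Igk or Igl. That rule kept 11939 of 55487 genes, of which 11933 had an adjusted p in the authors' deposited combination table and entered the test. Another 156 genes reached the base mean but carried an immunoglobulin symbol and were left out. The rule's edge fell between Pcdhb22, just inside with a base mean of 50.2 and a difference of 1.13, and Zg16, whose base mean was just under the minimum and whose difference was 1.89.

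All groups carried the same genotype, homozygous JAK2V617F on the C57BL/6 strain, so the controls also had the mutant kinase. The groups were palbociclib with ruxolitinib, ruxolitinib, palbociclib, and vehicle, with 3 polyA RNA libraries each. The comparison used 6 of the 12 libraries directly, and vehicle served as the link. The source label reads "BMT LSK cells", where BMT is the usual short form for bone marrow transplant. Doses, days of treatment, the age and sex of the mice, and whether marrow was pooled are not given in the labels. The labels do not tell whether each library had its own mouse, so p-values rest on a spread between libraries that may be technical. That spread was modelled for each gene in a fit of 24 libraries, 12 of them outside these groups.

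Ruxolitinib is an inhibitor of the JAK1 and JAK2 kinases, which pass signals from cytokine receptors to STAT factors. JAK2V617F is an activating change found in myeloproliferative neoplasms, including myelofibrosis. Palbociclib inhibits CDK4 and CDK6, kinases that act with D cyclins to phosphorylate the RB protein. Unphosphorylated RB and its relatives hold E2F factors in check, and E2F factors drive the genes of DNA replication. Most stem cells in the LSK fraction rest outside the cycle, while multipotent progenitors in it divide often.

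The difference for each gene was its log2 fold change in the combination minus that in ruxolitinib, both against vehicle, so that vehicle cancels and a positive value means higher in the combination. Its error was the root of the summed squared deposited errors, called the summed error below, which counts the vehicle variance in both terms although vehicle cancels. A second error, called the contrast error, held only the variances of combination and ruxolitinib, recovered from the 3 deposited errors of each gene. The median summed error was 0.27 and the median contrast error 0.19, a median ratio of 1.41. A gene passed at a Benjamini-Hochberg adjusted p under 0.05. A gene is said to have risen or fallen where it passed with the summed error, and a pass with the contrast error alone is named as such. Levels are modelled group levels in normalised reads with 95% intervals, since values per library were not used here, and they compare groups within a gene, not genes with each other.

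Reads in genes were estimated as the size factor of each library times the modelled total of its group. They were 18.2, 22.6 and 44.7 M in the combination, against 21.4, 32.6 and 34.1 M in ruxolitinib. The sorting markers were present in both groups. Kit, the stem cell factor receptor, stood at 19878 normalised reads in the combination and 14933 in ruxolitinib, and Ly6a, which encodes Sca-1, at 3557 and 1165 in the same order of groups. Cd34 stood at 22906 in the combination and 22522 in ruxolitinib. Of 7 surface genes tested, markers of the sort and its subsets together with Ly6e, none passed with the summed error. With that error 2 had an unadjusted p under 0.05. With the contrast error 2 passed as higher, beside 10.4% of all genes tested. These were Ly6a and Ly6e, of which only Ly6a is a marker of the sort.

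Signals from outside the stem and progenitor program also separated the groups. Immunoglobulin genes with Jchain took 7.53% of modelled reads in the combination, against 0.0249% in ruxolitinib, and 0.475% in palbociclib, against 0.0841% in vehicle. The Y-linked genes split by palbociclib. Ddx3y stood at 0.925 normalised reads in the combination (95% interval 0.152 to 5.63), against 1113 in ruxolitinib (309 to 4009), and at 4.03 in palbociclib, against 422 in vehicle. All 4 tested Y-linked genes fell, with differences from -10.23 to -7.81. Xist, the X-inactivation RNA, stood at 71513 in the combination and 42338 in ruxolitinib, a difference of 0.76 ± 1.12 that did not pass. Of 7 X-linked genes, Xist and the X-linked partners of Y genes, none passed with the summed error (1 lower at an unadjusted p under 0.05). With the contrast error 1 passed as lower, Ddx3x, beside 9.5% of all genes tested. The presence of palbociclib and the Y-linked signal cannot be told apart in these groups, and the part of either signal in the results was not tested. Since values per library were not used here, no result could be repeated with a library left out.

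Of the 11933 genes, 81 rose and 30 fell in the combination relative to ruxolitinib, 0.679% and 0.251% of those tested. With the contrast error 1236 genes passed as higher and 1134 as lower, 10.4% and 9.5% and together 19.9%. All 111 genes called with the summed error were among them (0.93%). Counts of list members above and below are to be read beside these shares. Of the 111 genes 73.0% were higher, whereas scaling to equal modelled totals with the immunoglobulin genes included, chosen after seeing the data, gave 56 higher and 196 lower genes, 22.2% higher. The differences themselves were centred close to 0, with a median of -0.02, quartiles of -0.27 and 0.30, and 48.2% of genes above 0. Large differences were more often on the higher side. Genes near 0 elsewhere could meet the base mean minimum through the combination alone, so this split may be partly set by that minimum. An absolute difference of at least 1 was reached by 52 of the genes that rose and 9 of those that fell, and by 506 higher and 95 lower genes with the contrast error. In simulated data with these group sizes and depths, the summed error found 60% of 2-fold and 89% of 4-fold changes. The contrast error found 78% and 96%. Only 100 genes were changed at each fold, vehicle was set equal to ruxolitinib, and the dispersions were taken as known. Among genes of the rule, unchanged genes made up 1.32% of simulated calls with the summed error and 15.1% with the contrast error. Outside the rule, 428 and 534 unchanged genes were called in the same adjustment. These shares describe the simulation and may not hold for the real calls.

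**Figure D1:**
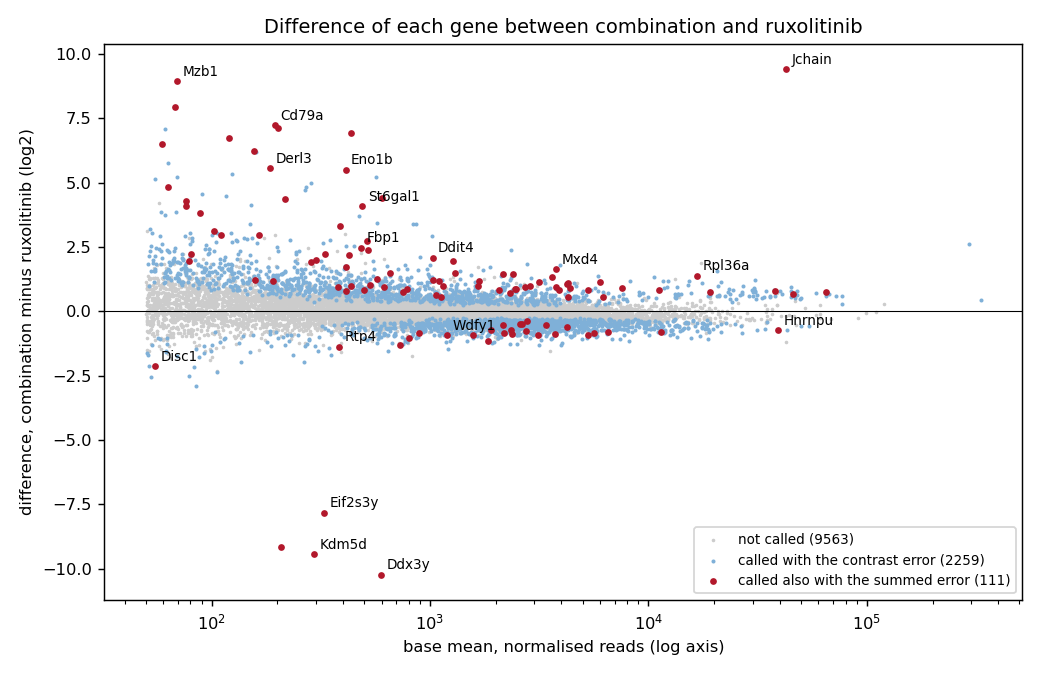
Each point is 1 of the 11933 genes, with its base mean in normalised reads on a log axis and its difference, combination minus ruxolitinib, on a log2 scale. Red points passed with both errors, blue points with the contrast error, grey points with neither; Jchain lies highest at 9.40 and Ddx3y lowest at -10.23.

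Of the 12 largest rises by the naming rule, 7 were on the plasma cell list and a further 1, Cd79a, on the B lineage list. Jchain, the joining chain of secreted IgM and IgA, stood at 252586 normalised reads in the combination (98866 to 645313), against 373 in ruxolitinib (146 to 954), a difference of 9.40 ± 1.38 (adjusted p = 4.86e-08). Mzb1, a chaperone of immunoglobulin assembly, rose by 8.95 ± 2.10, Tnfrsf17, the plasma cell receptor BCMA, by 7.95 ± 1.95, and Cd79a, a signalling chain of the B cell receptor, by 7.23 ± 1.65. Irf4 and Pou2af1, transcription factors of plasma cell formation, rose by 7.13 ± 1.59 and 6.91 ± 1.30. Mzb1 stood at 336 normalised reads (99.0 to 1140.5) in the combination, against 0.681 (0.110 to 4.24) in ruxolitinib, so the size of its fold is loosely fixed. The others were Cacna1h, a calcium channel subunit (6.73 ± 1.54), Gpr55 (6.49 ± 1.46), Ly6d (6.21 ± 1.49), Derl3, a part of endoplasmic reticulum quality control (5.57 ± 1.19), Eno1b (5.50 ± 0.95) and Eaf2 (4.84 ± 1.22). The rises of the genes on the plasma cell and B lineage lists stand beside the immunoglobulin share given above. So do those of Cacna1h, Gpr55 and Ly6d, which are on neither list. The part of that share in these rises was not tested.

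Across the whole plasma cell list, 7 of 20 tested genes rose, 0 fell and 18 passed as higher with the contrast error, with a median difference of 2.56 against -0.02 over all genes. Summed over the list, the modelled level was 307054 normalised reads in the combination and 20962 in ruxolitinib, and 36623 in palbociclib and 24093 in vehicle. Jchain made up most of the sum in the combination, and without it the level was 54468 in the combination and 20589 in ruxolitinib. Of the 21 genes of the B lineage list 6 met the base mean minimum, and of these Cd79a and Pou2af1 rose. Plasma and B lineage genes near 0 elsewhere met that minimum through the combination, so their counts and direction are partly set by it. Over the 17 B lineage genes with a solved level, the summed level was 7784 in the combination and 3388 in ruxolitinib. Sdc1, the plasma cell surface marker CD138, stood at 1028 (521 to 2031) in the combination, against 151 (76.3 to 300.5) in ruxolitinib, and passed with the contrast error alone (adjusted p = 0.00255). In bulk RNA, more cells of a type and more RNA per cell cannot be told apart.

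Eno1b, an intronless copy of the glycolytic enolase Eno1, stood at 447 normalised reads (257 to 776) in the combination, against 9.88 in ruxolitinib, and at 464 in palbociclib, against 7.36 in vehicle. Ncoa4-ps and Gm4735, both annotated as processed pseudogenes, also rose. Ncoa4-ps stood at 441 in the combination and 21.1 in ruxolitinib, and at 306 in palbociclib and 30.1 in vehicle. Gm4735 stood at 368 in the combination and 36.6 in ruxolitinib, and at 439.8 in palbociclib and 33.3 in vehicle. All 3 share sequence with a parent gene, and reads of parent and copy may have been split in counting, so their levels are uncertain. Eno1 itself stood at 7797 in the combination and 12656 in ruxolitinib, a difference of -0.70 ± 0.28.

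Further genes that rose are given one by one. Ddit4, an inhibitor of mTORC1, stood at 1778 normalised reads (1366 to 2314) in the combination, against 421 (322 to 549.9) in ruxolitinib, a difference of 2.08 ± 0.39 (adjusted p = 1.07e-04). Sesn2, another mTORC1 inhibitor and p53 target, rose by 0.97 ± 0.27, and Pik3ip1, a negative regulator of PI3 kinase, by 1.44 ± 0.36. Mxd4, which competes with MYC for its partner MAX, stood at 6383 in the combination and 2038 in ruxolitinib, a difference of 1.65 ± 0.39. Fbp1, the gluconeogenic fructose bisphosphatase, rose by 2.47 ± 0.54, and Trib3, a target of the integrated stress response, by 2.97 ± 0.84. Nfkbia, which encodes the NF-kB inhibitor IkB-alpha, rose by 1.16 ± 0.31, Arrdc4, an arrestin-like regulator of glucose uptake, by 1.48 ± 0.39, and Rec8, a meiotic cohesin subunit, by 1.95 ± 0.50. In the authors' deposited table for palbociclib over vehicle, Ddit4 (1.43), Rec8 (1.37) and Fbp1 also passed at an adjusted p under 0.05. In the authors' deposited table the others did not pass there, with log2 fold changes from 0.19 for Sesn2 to 0.56 for Trib3, and -0.28 for Nfkbia. Ddit4, Pik3ip1, Mxd4, Fbp1, Arrdc4 and Rec8 lie outside the naming rule and were picked with their values known.

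The 30 genes that fell included the 4 Y-linked genes, and the 12 largest falls beside those had smaller differences than the largest rises. Recql4, a helicase of replication and repair, stood at 406 normalised reads (320.1 to 514) in the combination, against 999.8 (793 to 1259.8) in ruxolitinib, a difference of -1.30 ± 0.34 (adjusted p = 0.0209). Pop1, a subunit of RNase P and RNase MRP, fell with a difference of -1.02 ± 0.27, Tcof1, a nucleolar factor of ribosomal RNA transcription, with -0.93 ± 0.26, and Rbm28, a nucleolar RNA-binding protein, with -0.87 ± 0.18. Upf1, the helicase of nonsense-mediated decay, had a difference of -0.84 ± 0.21, Sart3, a splicing recycling factor, of -0.91 ± 0.24, and Hnrnpu of -0.72 ± 0.19. Aars, the alanyl-tRNA synthetase, stood at 2611 in the combination and 4783 in ruxolitinib, a difference of -0.87 ± 0.25. Ctdp1, a phosphatase of RNA polymerase II, had a difference of -0.90 ± 0.25. Disc1 had the most negative of these differences (-2.13 ± 0.59) at low levels, 11.1 in the combination and 48.9 in ruxolitinib. Rtp4 (-1.37 ± 0.36) and Tgtp2 (-1.15 ± 0.32) are interferon-induced, and Wdfy1 had a difference of -0.92 ± 0.21. Hnrnpu lies outside the naming rule and was picked with its values known. Dpp9 and Skiv2l, which also fell, had smaller p-values.

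DNA replication genes stood lower in the combination than in ruxolitinib almost throughout. Of 58 tested S phase genes, 57 had a difference below 0, and the median was -0.66. With the summed error none passed after adjustment (31 were lower at an unadjusted p under 0.05), and 32 passed as lower with the contrast error. Lig1, the ligase that joins Okazaki fragments, stood at 4062 normalised reads (3116 to 5295) in the combination, against 8654 (6642 to 11275) in ruxolitinib, a difference of -1.09 ± 0.39 (adjusted p = 0.137 with the summed error and 0.00209 with the contrast error). Dnmt1, which copies DNA methylation behind the fork, had a difference of -0.97 ± 0.31, Pola1, the catalytic subunit of polymerase alpha, of -1.05 ± 0.37, and Mcm3, of the replicative helicase, of -0.83 ± 0.31. Rrm1, the large subunit of ribonucleotide reductase, stood at 8527 in the combination and 14988 in ruxolitinib. Rfc2 was the exception above 0, at 0.07, and lay at -0.05 when scaled to equal modelled totals with the immunoglobulin genes.

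The promoters of these genes are known for E2F sites, so the 300 bases from 250 before to 50 after each RefSeq start were searched on both strands for TTTCCCGC, TTTGGCGC, TTTCGCGC and TTTGCCGC. One of these stood in 19 of 55 promoters of the S phase list (34.5%), against 2.26% of all 32851 promoters. The S phase promoters came from 46 of the 58 genes matched by symbol. Dnmt1 (chr9:20952574-20952873, minus strand) and Pola1 (chrX:93632106-93632405, minus strand) are shown because they had the smallest p-values of the list and hold such a motif, here in capitals. Here and below, a gene with several RefSeq starts is shown by its first window with a match, which need not be its main start. Coordinates are of GRCm38.p6, and sequences run 5′ to 3′ along the gene.
Dnmt1: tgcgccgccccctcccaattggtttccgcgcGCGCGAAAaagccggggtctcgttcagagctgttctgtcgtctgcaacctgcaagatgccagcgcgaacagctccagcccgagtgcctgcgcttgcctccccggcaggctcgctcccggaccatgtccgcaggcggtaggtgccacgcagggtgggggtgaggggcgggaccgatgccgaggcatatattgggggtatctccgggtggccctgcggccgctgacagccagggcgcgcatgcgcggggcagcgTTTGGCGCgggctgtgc
Pola1: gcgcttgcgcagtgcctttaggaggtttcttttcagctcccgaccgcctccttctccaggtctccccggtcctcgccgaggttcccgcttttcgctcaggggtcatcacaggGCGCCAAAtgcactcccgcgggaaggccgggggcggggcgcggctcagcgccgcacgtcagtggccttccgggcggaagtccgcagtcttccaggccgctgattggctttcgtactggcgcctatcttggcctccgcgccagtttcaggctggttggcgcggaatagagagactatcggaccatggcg
A match describes these letters and does not show a bound site.

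G2 and mitosis genes also stood lower, with 65 of 66 below 0 and a median of -0.71. With the summed error none passed after adjustment (17 were lower at an unadjusted p under 0.05), and 21 passed as lower with the contrast error. Smc2, a condensin ATPase, stood at 3536 normalised reads (2827 to 4424) in the combination, against 6894 (5514 to 8619) in ruxolitinib, a difference of -0.96 ± 0.33 (adjusted p = 0.117 with the summed error and 0.00123 with the contrast error). Top2a, the topoisomerase that untangles sister chromatids, stood at 10650.3 in the combination and 22332 in ruxolitinib, and the kinesin Kif15 at 1677 and 3472 in the same order of groups. Espl1, the separase that cuts cohesin at anaphase, had a difference of -1.29 ± 0.50, and Incenp, of the chromosomal passenger complex, of -1.05 ± 0.38. Pttg1, which encodes securin, lay above 0 at 0.63 and did not pass. The cell cycle homology region TTTGAA, known from late cell cycle promoters, stood in 43 of 61 promoters of this list (70.5%), against 17.9% of all promoters and 14.5% of those of the S phase list. The E2F motifs stood in 9.84% of the promoters of the mitosis list. Smc2 (chr4:52438971-52439270, plus strand) and Espl1 (chr15:102296043-102296342, plus strand) are shown with TTTGAA or its reverse complement TTCAAA in capitals.
Smc2: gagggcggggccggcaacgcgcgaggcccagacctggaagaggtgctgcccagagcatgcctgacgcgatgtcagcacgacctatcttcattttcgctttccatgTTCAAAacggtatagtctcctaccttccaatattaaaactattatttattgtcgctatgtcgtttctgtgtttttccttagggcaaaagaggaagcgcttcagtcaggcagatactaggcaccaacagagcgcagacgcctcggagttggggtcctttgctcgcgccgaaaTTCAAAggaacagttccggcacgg
Espl1: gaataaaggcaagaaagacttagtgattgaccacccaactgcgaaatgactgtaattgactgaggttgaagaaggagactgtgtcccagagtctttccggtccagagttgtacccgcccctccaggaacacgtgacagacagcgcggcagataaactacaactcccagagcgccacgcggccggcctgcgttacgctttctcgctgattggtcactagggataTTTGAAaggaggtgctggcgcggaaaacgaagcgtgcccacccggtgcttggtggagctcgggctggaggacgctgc
In the Fanconi anemia and homologous recombination list, which repairs replication-linked breaks, 30 of 31 genes lay below 0 with a median of -0.59, none passed with the summed error (9 were lower at an unadjusted p under 0.05), and 12 passed as lower with the contrast error. Fanca stood at 1043 in the combination and 2141 in ruxolitinib, and Brca1 at 1272 and 2572 in that order.

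In the circuit on which palbociclib acts, 7 of 26 genes passed with the contrast error, beside 19.9% of all genes tested. Of these 26 genes, for D cyclins, their kinases, RB proteins, E2F factors and CDK inhibitors, none passed with the summed error (2 higher and 3 lower at an unadjusted p under 0.05), 2 passed as higher and 5 as lower with the contrast error, and the median was -0.22. Cdk6 stood at 27109 normalised reads (22450.3 to 32735) in the combination, against 34229 (28348 to 41330.5) in ruxolitinib, and Cdk4 at 11451 (9825 to 13347) against 13659 (11721 to 15919). Neither passed with either error. The higher genes were D cyclins. Ccnd1 stood at 4777 in the combination and 2791 in ruxolitinib, a difference of 0.78 ± 0.36, and Ccnd2 at 19905 and 12817, a difference of 0.64 ± 0.25 (adjusted p = 0.0219 and 0.00473 with the contrast error). Ccnd3 had a difference of 0.05 ± 0.19, which changed sign when scaled to equal modelled totals with the immunoglobulin genes. The lower genes were the repressor-type E2f4 (-0.53 ± 0.18), E2f7 (-0.87 ± 0.36) and E2f8 (-0.92 ± 0.36), the E2F partner Tfdp1 (-0.46 ± 0.24) and Cdkn2c, the INK4 inhibitor p18 (-0.57 ± 0.30). The activator E2f1 had a difference of -0.70 ± 0.38, Rb1 of -0.10 ± 0.26, Cdkn1b (p27) of 0.11 ± 0.27 and Cdkn1a (p21) of -0.18 ± 0.39, and none of these passed. Of 20 p53 target genes, 1 rose, Sesn2, and 5 passed as higher and 2 as lower with the contrast error. The largest of these were Trp53inp1, an autophagy and stress protein that is also on the plasma cell list (2.39 ± 0.73), and Phlda3, an inhibitor of AKT (-2.15 ± 0.70).

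**Figure D2:**
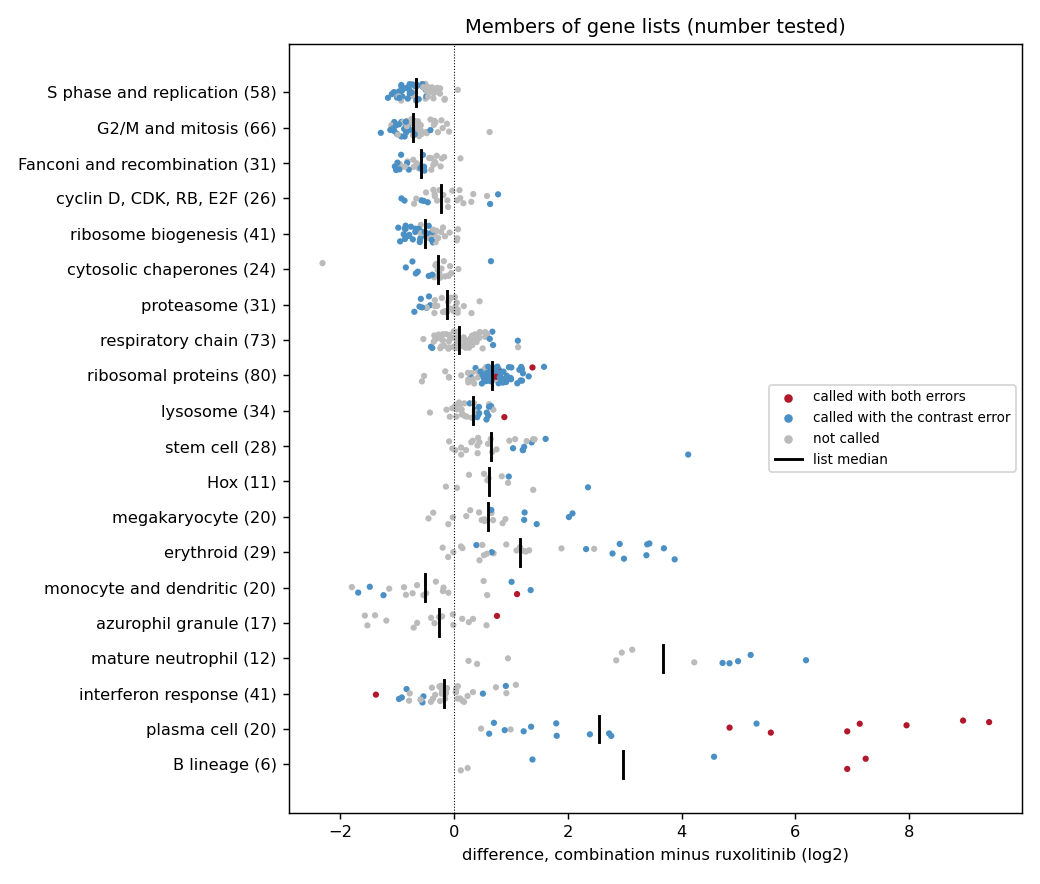
Each row is a gene list with its number of tested genes, and each point is a member's difference, combination minus ruxolitinib, on a log2 scale, with the list median as a black bar. S phase, mitosis, recombination and ribosome biogenesis genes lie mostly left of 0, with medians of -0.66, -0.71, -0.59 and -0.51; ribosomal protein and plasma cell genes lie mostly right, with medians of 0.66 and 2.56.

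Ribosomal protein genes and the factors that build ribosomes stood on opposite sides. Of 80 cytosolic ribosomal protein genes, 75 had a difference above 0, the median was 0.66, 3 rose and 62 passed as higher with the contrast error. Rpl23 stood at 53163 normalised reads (46319 to 61017) in the combination, against 30505 (26577 to 35014) in ruxolitinib, a difference of 0.80 ± 0.20 (adjusted p = 0.0147). Rps4x rose by 0.74 ± 0.21 and Rpl36a by 1.38 ± 0.40. Many ribosomal protein genes have processed copies, among them Rpl36a-ps1, and their counts are uncertain to that extent. Of 41 ribosome biogenesis genes, 38 lay below 0, the median was -0.51, and 24 passed as lower with the contrast error while none passed with the summed error (23 were lower at an unadjusted p under 0.05). Nucleolin, Ncl, stood at 44847 (38894 to 51711) in the combination, against 66892 (58016 to 77125) in ruxolitinib. Nop2, a ribosomal RNA methyltransferase, had a difference of -0.79 ± 0.25, Nolc1, a nucleolar assembly factor, of -0.88 ± 0.30, and Heatr1, of the small subunit processome, of -0.98 ± 0.35. Mitochondrial ribosomal protein genes had a median of -0.16, and 5 of 61 passed as lower with the contrast error, near the 9.5% of all genes tested.

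Of 34 lysosome and autophagy genes, 30 had a difference above 0, 1 rose and 14 passed as higher with the contrast error, with a median of 0.33. Ctsl, the protease cathepsin L, stood at 1123 normalised reads (955 to 1321) in the combination, against 607 (515 to 716) in ruxolitinib, a difference of 0.89 ± 0.24. Ctsd, cathepsin D, had a difference of 0.58 ± 0.22, and Sqstm1, the autophagy receptor p62, of 0.62 ± 0.24. Of 27 genes of the unfolded protein and integrated stress responses, 3 rose, Dnajb9 (1.17 ± 0.33), Sesn2 and Trib3, and 8 passed as higher and 1 as lower with the contrast error. Xbp1, Edem1 and Herpud1 of that list stood at 8867, 6269 and 4382 in the combination and 2551, 2682 and 1807 in ruxolitinib. Plasma cells are known for high levels of these genes, and Xbp1 and Edem1 are on the plasma cell list too, whose values are given above. Their part in the stress genes was not tested. Of 24 cytosolic and mitochondrial chaperones, 6 passed as lower and 1 as higher with the contrast error and the median was -0.28, with Hspa4, an HSP70 relative, at 8901 in the combination and 14757 in ruxolitinib. Of 31 proteasome genes 7 passed as lower with the contrast error, beside 9.5% of all genes tested, and the median was -0.13.

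Stem cell genes stood mostly higher in the combination. Of 28 tested, 26 had a difference above 0 and the median was 0.66, with none past the summed error (7 higher at an unadjusted p under 0.05) and 7 higher and 0 lower with the contrast error. Procr, the stem cell marker EPCR, stood at 1373 normalised reads (1008 to 1869) in the combination, against 592 (434 to 808) in ruxolitinib, a difference of 1.21 ± 0.46 (adjusted p = 0.167 with the summed error and 0.00356 with the contrast error). Esam, an adhesion molecule of stem cells, had a difference of 1.37 ± 0.46, Ly6a of 1.61 ± 0.49, and Mllt3, a chromatin reader that maintains stem cells, of 1.04 ± 0.46. The widest of the list was Sult1a1, a sulfotransferase (4.12 ± 1.21). Mecom stood at 2439 in the combination and 1558 in ruxolitinib, and Meis1 at 6301 and 4723, and neither passed. Of 18 Hox genes 11 were tested, and 10 lay above 0 with a median of 0.61. Hoxb6 (2.36 ± 0.90) and Hoxa5 (0.96 ± 0.45) passed with the contrast error alone. Megakaryocyte genes had a median of 0.60, with 6 of 20 higher with the contrast error, among them the platelet integrin Itgb3 (1.45 ± 0.73). Lymphoid-primed genes, 11 of 17 tested, had a median of -0.12, with Cd27 higher (0.46 ± 0.20) and Tcf3 lower (-0.48 ± 0.22) with the contrast error.

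Erythroid genes stood higher in the combination with wide errors. Of 29 tested, 26 lay above 0, the median was 1.16, none passed with the summed error (10 higher at an unadjusted p under 0.05) and 11 passed as higher with the contrast error. The beta globin gene Hbb-bt stood at 2144 normalised reads (1073 to 4282) in the combination, against 198 (98.9 to 398) in ruxolitinib, a difference of 3.43 ± 1.02. Slc4a1, the red cell anion exchanger, had a difference of 3.69 ± 1.53. Adult globin genes are near-identical pairs, so the level of each copy is uncertain. The early regulator Tal1 had a difference of -0.01 and the transferrin receptor Tfrc of -0.10, and neither passed. Summed over the list, the modelled level was 70323 in the combination and 45703 in ruxolitinib, and 53314 in palbociclib and 75719 in vehicle.

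Of 19 genes of mature neutrophil granules and alarmins in the table, 12 met the base mean minimum. Some met it through the groups where they were high, so their sign and median are partly set by that minimum. Their median difference was 3.68, with none past the summed error (5 higher at an unadjusted p under 0.05) and 5 higher with the contrast error. Ltf, lactoferrin, stood at 204 normalised reads (51.4 to 812) in the combination, against 6.42 (1.51 to 27.3) in ruxolitinib, and at 1563 in palbociclib, against 6.35 in vehicle. The level summed over the 17 genes with a solved level was 4947 in the combination and 2548 in ruxolitinib, and 12398 in palbociclib and 3085 in vehicle. Mature neutrophils lie outside the sorted fraction, and the part of such cells was not tested. Genes of the azurophil granule stage had a median of -0.26. Mpo, myeloperoxidase, stood at 14072 (9099 to 21764) in the combination, against 32065 (20734 to 49588) in ruxolitinib, and Elane, neutrophil elastase, at 721 against 2067, and neither passed. Srgn, the granule proteoglycan serglycin, rose by 0.76 ± 0.15.

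Of 30 monocyte and dendritic genes 20 met the base mean minimum, with a median of -0.51. Of these, 3 passed as higher and 3 as lower with the contrast error, beside 10.4% and 9.5% of all genes tested. The level summed over the 27 genes of the list with a solved level was 28042 in the combination and 26476 in ruxolitinib. Lyz2, lysozyme, rose and stood at 6122 normalised reads (5152 to 7274) in the combination, against 2838 (2387 to 3375) in ruxolitinib, and Ctss, cathepsin S, at 1397 in the combination and 549 in ruxolitinib, and Cd68, a macrophage lysosomal protein (1.01 ± 0.44), were the other higher genes. Irf8, the factor of monocyte and dendritic commitment, stood at 751 in the combination and 1770.3 in ruxolitinib, Mpeg1 at 465 and 1296, and Cx3cr1 at 48.1 and 154, and these 3 passed as lower with the contrast error alone. Of 21 mast cell, basophil and eosinophil genes 15 were tested, with a median of 0.56. Some may have met the base mean minimum through groups where they were high, so sign and median may be partly set by it. Epx of that list fell just outside, at a base mean of 49.98 and a difference of 3.28. Prg2, the eosinophil major basic protein (5.21 ± 1.59), and Fcer1a, of the IgE receptor, passed as higher with the contrast error. Fcer1a stood at 924 in the combination and 238 in ruxolitinib. In the authors' deposited tables its log2 fold change over vehicle was 0.24 in the combination and -1.72 in ruxolitinib. The level summed over 19 genes of the list was 25724 in the combination and 17093 in ruxolitinib. It was 21328 in palbociclib and 31042 in vehicle. Of 26 T and NK cell genes 6 met the base mean minimum, and 1 rose, Cd28 (4.28 ± 1.14), which plasma cells also express. Over 16 genes with a solved level, the summed level of that list was 4953 in the combination and 4428 in ruxolitinib. Stromal and endothelial genes, 6 tested, gave no pass with the summed error (1 higher at an unadjusted p under 0.05) and 1 higher with the contrast error, the Tie2 ligand Angpt1.

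**Figure D3:**
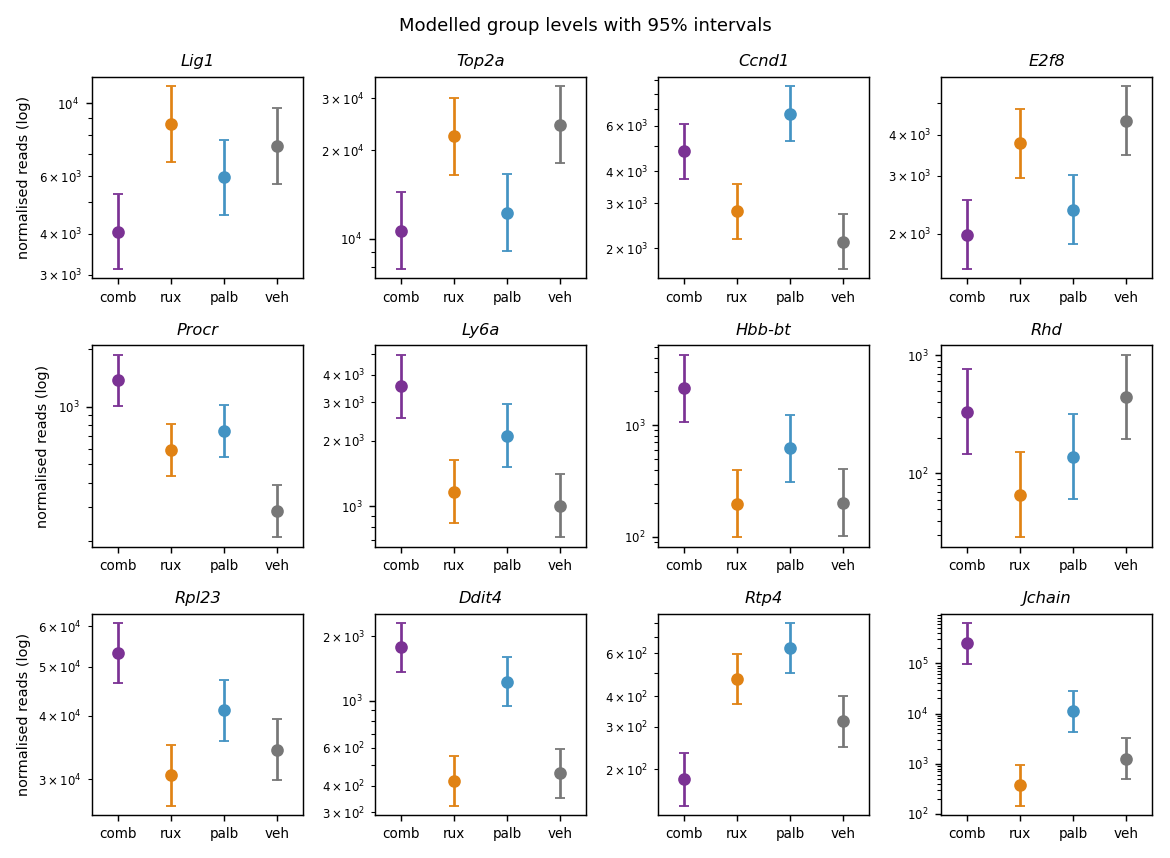
Modelled group levels of 12 genes in normalised reads on log axes, each with its 95% interval, for combination (comb), ruxolitinib (rux), palbociclib (palb) and vehicle (veh). Lig1 and Top2a stand lower in the combination than in ruxolitinib, at 4062 against 8654 and 10650.3 against 22332; Procr, Ly6a, Rpl23, Ddit4 and Jchain stand higher.

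Genes of the JAK pathway and of cytokine responses were read against the 0.93% of all genes that passed with the summed error and the 19.9% with the contrast error. None of 13 genes for JAK kinases, STAT factors and CDK4 and CDK6 passed with either error, nor at an unadjusted p under 0.05 with the summed error. Jak2 stood at 2451 normalised reads (2046 to 2936) in the combination, against 2249 (1877 to 2693) in ruxolitinib, and Stat5b at 4958 (4372 to 5622) against 5230.2 (4613 to 5929.6). Of 19 STAT target and feedback genes, none passed with the summed error (2 higher at an unadjusted p under 0.05) and 2 passed as higher with the contrast error, Tnfrsf13b (0.70 ± 0.21) and Ccnd2, and of these Tnfrsf13b is also on the plasma cell list. Cytokine receptor genes had a median of 0.15, with 3 of 25 higher with the contrast error, among them Ifnar1 and Tnfrsf1a. Of 41 interferon-induced genes 1 fell, Rtp4, and 2 passed as higher and 7 as lower with the contrast error. Oas3, which makes the activator of RNase L, stood at 371 in the combination and 724 in ruxolitinib, while Ifitm1, a membrane restriction factor, stood at 6445 and 3427. Of 18 NF-kB targets Nfkbia rose, and 4 passed as higher with the contrast error, Traf1, Vcam1 and Ier3 besides it.

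The same step, adding palbociclib, was also measured without ruxolitinib, as palbociclib against vehicle. These comparisons share no library, although they come from 1 fit. Over the 11933 genes the 2 differences correlated with Pearson's r = 0.47 and Spearman's rho = 0.39, a description across genes, which are not independent replicates. The difference of both effects, with minus without ruxolitinib, passed for 1 gene as higher and 2 as lower with the summed error (0.00838% and 0.0168%, together 0.0251%), and for 137 and 66 genes with the variances of the 4 groups (1.15% and 0.553%, together 1.7%). Camsap2, a microtubule minus-end protein, stood at 343 normalised reads in the combination and 149 in ruxolitinib, and at 180.4 in palbociclib and 689 in vehicle. Its difference of effects was 3.14 ± 0.75 (adjusted p = 0.0466). Rtp4, a chaperone of receptors induced by interferon, stood at 182 in the combination and 470.5 in ruxolitinib, and at 633 in palbociclib and 316 in vehicle, a difference of effects of -2.38 ± 0.43 (adjusted p = 2.90e-04). Rai14, an actin-associated protein, gave -1.30 ± 0.28 (adjusted p = 0.0148). The direction of the palbociclib step was opposite in both settings for each of the 3.

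The next genes by p passed with the variances of the 4 groups alone. Ccl9, a chemokine of myeloid cells, stood at 4866 normalised reads in the combination and 1908 in ruxolitinib, and at 3402 in palbociclib and 5065 in vehicle, with a difference of effects of 1.93 ± 0.47. Acss1 (1.65 ± 0.40), Rgcc (1.72 ± 0.44) and Gas7 (3.90 ± 0.99) were higher in the same sense, and Nsmf (-0.96 ± 0.25), Kif1c (-0.86 ± 0.24) and Tgtp2 (-1.42 ± 0.39) lower. Tgtp2 is an interferon-induced GTPase, and Oas3 of the interferon list also passed (-1.73 ± 0.57, adjusted p = 0.0294 with the variances of the 4 groups).

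List medians in the authors' deposited table for palbociclib over vehicle were set beside those of the combination over ruxolitinib. Mitosis genes had medians of -0.71 with ruxolitinib and -0.84 without it in the authors' deposited table, and stem cell genes 0.66 and 0.93. S phase genes had -0.66 with and -0.15 without ruxolitinib in the authors' deposited table, and ribosomal protein genes 0.66 and 0.09. All 4 lists thus kept the sign of their median, and S phase and ribosomal protein medians lay nearer to 0 without ruxolitinib. Erythroid genes had 1.16 with and -0.78 without ruxolitinib in the authors' deposited table, and monocyte and dendritic genes -0.51 and -1.76. Tested gene by gene, the difference of effects passed for none of the S phase, mitosis, stem cell or ribosomal protein genes with the variances of the 4 groups, and for 4 erythroid genes as higher. These medians are descriptions and were not tested against each other.

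**Figure D4:**
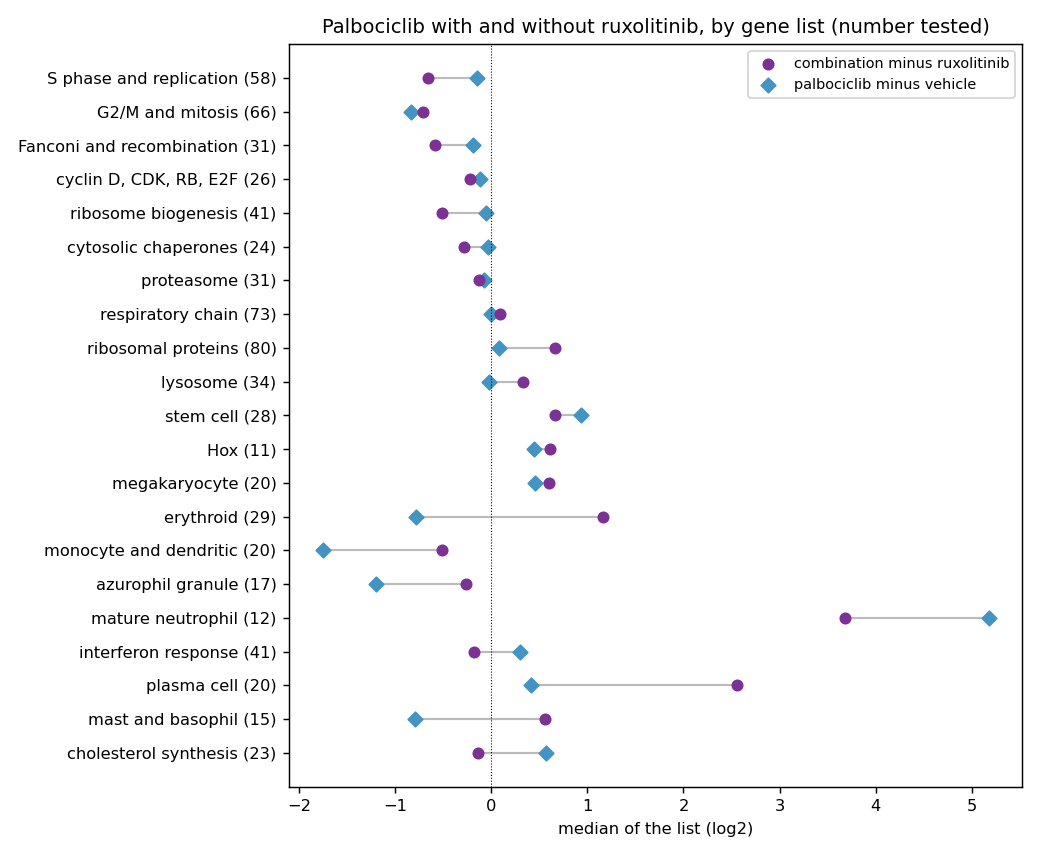
For each gene list, with its number of tested genes, the circle is the median difference of combination minus ruxolitinib and the diamond the median of palbociclib minus vehicle, both on a log2 scale. Mitosis and stem cell medians lie close together, at -0.71 and -0.84 and at 0.66 and 0.93; erythroid medians lie on opposite sides of 0, at 1.16 and -0.78.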

How the data were processed

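PolyA RNA of LSK cells was sequenced in 12 libraries, 3 in each of 4 groups. Per the submitters' processing notes, the build was GRCm38 and the tools included HISAT2 (version 2.0.1), fastp (version 0.20.0), featureCounts (version 2.0.0), SAMtools (version 1.10) and DESeq2, whose version and settings are not given in the sources used here. The deposited tables hold 3 comparisons with vehicle. The base mean is a signal the authors computed by averaging normalised counts over the fit, and the size factors place 24 libraries in that fit, the 12 of these groups and 12 others. The log2 fold changes and their standard errors are the authors' DESeq2 estimates. The score is the Wald statistic the authors deposited, and the p-value and adjusted p are those the authors deposited for it.

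From these, differences, errors and group levels were computed in Python 3.11.15 with scipy 1.17.1, pandas 2.3.3 and numpy 2.4.6. Differences were tested with a 2-sided normal test, Benjamini-Hochberg adjusted over the 19228 genes with an adjusted p in the combination table. The vehicle level and the dispersion of each gene were solved from its 3 errors, 3 equations in 2 unknowns, met within 1e-06 for 11932 of 11933 genes. Scripts were tested on simulated data. Intervals of levels hold counting error and the spread that the model assigns. Named genes were the 12 largest passed differences in each direction without Y-linked genes, pseudogenes and unnamed clones, the 5 smallest adjusted p in each direction, up to 4 members a list by p, all members of the cyclin, kinase and sorting lists, and the 5 smallest p in each direction for the difference of effects. Other genes named were chosen after their values were seen, and list members named beside the top 4 serve as examples. The members, the 41 gene lists and the tests were chosen with earlier results of these data known. Promoters came from RefSeq on GRCm38.p6, and gene types from GENCODE mouse release 21. Alternatives covered the error, the genes adjusted over, base mean minimum, scaling, immunoglobulin genes and threshold.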

Additional observations from a re-analysis of the deposited data

Results flagged for a closer look

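The effect of palbociclib differed between its use with and without ruxolitinib for 3 genes with the summed error, by a test of the difference itself. For Camsap2 the difference of effects was 3.14 on the log2 scale, for Rtp4 -2.38 and for Rai14 -1.30. Camsap2 stood at 343 normalised reads in the combination and 149 in ruxolitinib, and at 180.4 in palbociclib and 689 in vehicle. Rai14 stood at 921 in the combination and 1365 in ruxolitinib, and at 1317 in palbociclib and 793 in vehicle.

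Immunoglobulin genes and Jchain, which lie outside the gene rule except for Jchain, took 7.53% of modelled reads in the combination, above the 0.0841% in vehicle. The share was 0.0249% in ruxolitinib and 0.475% in palbociclib. It was summed over the 150 such genes whose levels could be solved, and its part in other results was not tested.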

How the results depend on the processing

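Counts of genes higher and lower, 81 and 30 with the summed error, moved most with the error used. They were 1234 and 1140 with a correlation of 0.5 between the fold changes, 1236 and 1134 with the contrast error, and 1350 and 1258 with the contrast error adjusted over the genes of the rule, a setting chosen after seeing the data. List members counted over all lists, 21 higher and 5 lower, became 169 and 139, 169 and 138, and 179 and 156 under these settings in turn. Adjusting the summed error over the genes of the rule gave 18 lower. Keeping immunoglobulin genes gave 161 higher. An adjusted p under 0.01 left 29 higher and 7 lower, with 10 list members higher, and one under 0.1 gave 198 and 91, with 45 and 10 list members. Scaling to equal modelled totals with immunoglobulin genes, chosen after seeing the data, lowered all differences by 0.118 and gave 56 higher and 196 lower (22.2% higher, against 73.0%), with 15 list members lower. Without the plasma and B cell lists, also chosen later, 13 list members were higher. For the difference of effects, 1 and 2 genes became 137 and 66 with recovered variances.

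Base mean minimums of 10 and 200 and no minimum gave 96 and 33, 63 and 29, and 97 and 34. No examined gene that passed with the summed error or under an alternative changed sign under that alternative. With the immunoglobulin totals 28 of the uncalled genes examined changed sign, among them Ccnd3 (-0.06), Rfc2 (-0.05), Cdkn1b (-0.01) and Cd34 (-0.09), and when centred 2 did, among them Tal1 (0.01). The respiratory chain and ERK medians changed sign with the immunoglobulin totals, to -0.03 each, against 0.09, the ERK median also with no minimum (-0.01), the apoptosis median when centred (0.01), and the T and NK median at other minimums (0.15). No paired analysis was possible because values per library were not used here, and for the same reason no library was left out.

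At these depths the summed error found 60% of simulated 2-fold changes, and genes with under 1 normalised read in a group have loosely fixed folds.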

Other observations

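Respiratory chain genes had a median of 0.09 over 73 tested, which changed sign with the immunoglobulin totals. With the contrast error 4 passed as higher and 2 as lower, under the 10.4% and 9.5% of all genes tested. Ndufs1, the largest complex I subunit, stood at 3243 normalised reads in the combination and 4224 in ruxolitinib, while the small subunit Ndufa2 stood at 3085 and 1417. Glycolysis genes had a median of -0.31. Pgam1, phosphoglycerate mutase, stood at 3388 in the combination and 5883 in ruxolitinib, and Ldhb, a lactate dehydrogenase chain, at 929.6 and 480.2, and both passed with the contrast error alone. Cholesterol synthesis genes had a median of -0.14, beside 0.57 for palbociclib over vehicle in the authors' deposited table, and Fdps passed as higher with the contrast error (1.17 ± 0.58).

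Genes of mitochondrial apoptosis had a median just below 0 over 20 tested, and just above 0 when all differences were centred. Bmf, a BH3-only inducer of apoptosis, stood at 201 in the combination and 45.9 in ruxolitinib, and passed with the contrast error alone. ERK feedback and immediate early genes had a median of 0.09, which changed sign with the immunoglobulin totals and with no base mean minimum. Class II antigen presentation genes had a median of 0.16, with 3 of 11 higher with the contrast error, H2-Oa (1.12 ± 0.38), Ctss and H2-DMa. Of the 11, 7 lay above 0. The 4 below 0 were H2-Aa (-0.49), H2-Ab1 (-0.47), H2-Eb1 (-0.52) and Ciita (-0.86), and none of these passed with either error. Of 20 imprinted genes listed 6 were tested and 1 rose, Impact, a regulator of the kinase GCN2 (0.58 ± 0.16). Fibrosis genes, 10 of 21 tested, had a median of 0.93. The members that passed with the contrast error, Mmp9 and S100a9, are on the mature neutrophil list as well.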
